A study of Mus musculus with 6 samples.

Results

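Complex III, cytochrome c, complex IV and ATP synthase (complex V) form the last steps of the mitochondrial respiratory chain, and the nuclear genes for them were followed in mouse naive CD4+ T cells given NETs or Vehicle. NETs are neutrophil extracellular traps, mesh-like structures of chromatin and granule proteins that neutrophils expel. The set held every protein-coding gene whose symbol begins with Uqcr, Uqcc, Cox4, Cox5, Cox6, Cox7, Cox8 or Atp5, together with Cyc1, Cycs, Ndufa4, Bcs1l, Surf1, Sco1, Sco2, Cox10, Cox11, Cox14 to Cox20, Atpaf1, Atpaf2 and Atpif1. It comprised 66 of the 54532 genes of the deposited count table under 65 symbols, because Atp5o is listed under 2 identifiers, and 59 had enough reads to be tested. The NETs group (3 bulk RNA-seq libraries) and the Vehicle group (3 libraries) were both made from naive CD4+ T cells of C57BL/6 spleen. In both groups the cells were stimulated for 72 h with CD3/CD28 beads in the presence of IL-2 and of antibodies that block IFNγ and IL-4. The source and dose of the NETs and the age of the animals were not given in the sources used here. Nothing states that the replicates were separate animals or cultures, so the p-values measure the spread between these libraries, which may be technical.

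Complex III passes electrons from ubiquinol to cytochrome c, and complex IV, cytochrome c oxidase, passes them from cytochrome c to oxygen. Both move protons across the inner mitochondrial membrane, and ATP synthase lets protons flow back through its membrane part, the Fo rotor, to drive ATP synthesis in its F1 head. A few of their subunits are encoded in mitochondrial DNA and all others in the nucleus, so that assembly needs both genomes and a series of dedicated chaperones. T cells are known to enlarge this machinery when they leave quiescence after stimulation through CD3 and CD28.

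Reads summed over genes were 17148910 to 18394828 per NETs library and 15657622 to 18655997 per Vehicle library, and 13900 genes had enough reads for testing. The T cell genes Cd4, Cd3e, Cd3g, Cd3d, Cd28, Lck, Cd5 and Cd2 were all present, with Cd4 at 885 ± 13.3 CPM with NETs and 900.3 ± 51.2 CPM with Vehicle (CPM are counts scaled to an equal library total; mean ± SD, n = 3 each). The 8 T cell genes summed to 3753 to 3988 CPM with NETs and 3687 to 4193 CPM with Vehicle. Markers of other cells were low. The 2 CD8 genes summed to 13.1 to 19.5 CPM with NETs and 18.4 to 20.8 CPM with Vehicle, 5 B cell genes to 13.2 to 19.2 CPM with NETs and 17.6 to 18.3 CPM with Vehicle, and 5 erythroid genes to 0.990 to 2.22 CPM with NETs and 0.965 to 1.15 CPM with Vehicle. The 7 myeloid genes summed to 42.3 to 57.5 CPM with NETs and 32.3 to 43.9 CPM with Vehicle, so the sums overlapped. Lyz2, at 36.0 ± 4.56 CPM with NETs and 23.5 ± 5.77 CPM with Vehicle, was the one at an unadjusted p below 0.05, and Itgam (-0.25) and Fcgr3 (-0.30) had negative log2 fold changes. The 9 neutrophil genes summed to 3.90 to 5.06 CPM with NETs and 1.55 to 2.75 CPM with Vehicle, without overlap. The neutrophil gene S100a9 had 16, 24 and 20 reads in the NETs libraries and 0 in each Vehicle library. S100a8 had 7, 11 and 10 reads with NETs against 0, 1 and 0, and Ngp 0, 13 and 4 against 0 in each. Groups overlapped for Mpo (32, 34 and 41 against 29, 37 and 15), Ltf (7, 7 and 5 against 10, 3 and 10) and Elane (5, 1 and 2 against 0, 2 and 0). Camp had 1 read and Retnlg 2, all in NETs 2, and the defining neutrophil gene Ly6g had 0 reads in all libraries. The part of these cells in the results below was not tested. In bulk RNA a change in the number of cells of a type and a change in RNA per cell cannot be told apart.

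Per transcript length, the gene of the catalytic subunit of ATP synthase was the most abundant of the set. This gene, Atp5b (beta subunit of the F1 head), had 1136 ± 122 FPKM with NETs and 946 ± 112 FPKM with Vehicle (FPKM is fragments per kilobase of transcript, scaled to library size; mean ± SD, n = 3 each). Atp5a1, the alpha subunit that alternates with beta in the head, had 577 ± 41.5 FPKM with NETs and 475 ± 53.4 FPKM with Vehicle. Cox4i1, the complex IV subunit that binds adenine nucleotides, was the most abundant complex IV gene with 495 ± 43.3 FPKM with NETs and 476 ± 35.8 FPKM with Vehicle. The hinge protein gene Uqcrh led complex III with 267 ± 6.43 FPKM with NETs and 267 ± 18.6 FPKM with Vehicle. Most of the lowest levels were those of assembly factors. In both groups all 4 complex III assembly genes lay below 40 FPKM. The tested complex IV assembly genes extended down to Cox20, a chaperone of the mitochondrially encoded COX2 subunit. Cox20 had 2.73 ± 1.10 FPKM with NETs and 3.39 ± 0.756 FPKM with Vehicle. Other assembly factors lay above some subunit genes. Cox14 had 71.8 FPKM with NETs and 54.2 FPKM with Vehicle, beside 16.8 and 12.5 FPKM for the subunit gene Atp5g1. Cytochrome c, Cycs, had 35.8 ± 3.25 FPKM with NETs and 27.9 ± 5.05 FPKM with Vehicle. Tested members drew between 130 reads (Cox7a1) and 94108 reads (Atp5b) over the 6 libraries.

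**Figure D1:**
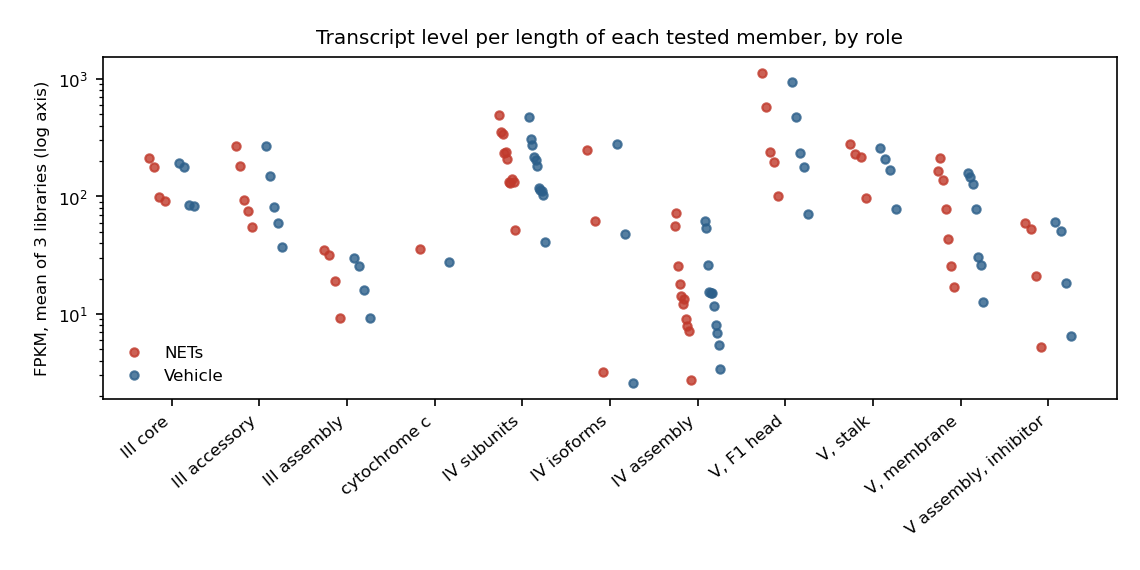
Mean FPKM of each tested member in the NETs libraries (red) and the Vehicle libraries (blue), on a log axis and grouped by role, each point being 1 gene. The F1 head and the complex IV subunits hold the highest points, up to 1136 FPKM for Atp5b with NETs, and the assembly factors hold most of the lowest.

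The NETs libraries held more of these transcripts than the Vehicle libraries by a modest margin, and no single member passed adjustment in edgeR. The 66 members together took 0.707%, 0.662% and 0.645% of reads in the NETs libraries, against 0.591%, 0.567% and 0.613% in the Vehicle libraries. The lowest NETs library thus lay above the highest Vehicle library. Summed by complex, complex III genes had 1068, 988 and 968 CPM with NETs and 885, 887 and 952 CPM with Vehicle. Complex IV genes summed to 2033, 1918 and 1991 CPM with NETs and 1803, 1829 and 1807 CPM with Vehicle. ATP synthase genes summed to 3899, 3647 and 3426 CPM with NETs and 3167, 2911 and 3314 CPM with Vehicle. In each of the 3 complexes the groups did not overlap.

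Gene by gene, 49 of the 59 tested members had a log2 fold change above 0, where 50.2% of all genes tested did. Their median log2 fold change was 0.21, a 1.16-fold difference, beside a median of 0.0011 over all genes. At an adjusted p of 0.05 no member was called by edgeR's quasi-likelihood test, and neither was any of the 13900 genes (0% called), of which 1776 (12.8%) had an unadjusted p below 0.05. The smallest adjusted p among members was 0.223. At an unadjusted p below 0.05, 23 members were higher with NETs and 0 were lower, where the shares over all genes were 6.72% higher and 6.06% lower. The share of members higher at that p, 39.0%, was above the share of all genes. In 21 members every NETs library lay above every Vehicle library (7.68% of all genes), and in 0 members every NETs library lay below (9.04%). DESeq2 called 3 members higher at an adjusted p of 0.05, namely Atp5g3, Atp5e and Atp5j (0.25% of the genes it tested), and limma-voom called 0 (0.00719% of genes). Fitting edgeR without a filter on low counts called 9 members higher, Atp5g3, Atp5e, Cox6a1, Ndufa4, Uqcr11, Atp5g1, Cox14, Atp5j and Atp5a1 (0.775% of genes).

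Single libraries weighed on the counts of calls. The NETs 1 library was the highest of the 6 in 32 of the 59 members, and the Vehicle 2 library the lowest of the 6 in 31. The median member stood 0.31, 0.13 and 0.12 above the Vehicle mean on the log2 scale in the NETs libraries, and at 0.015, -0.064 and 0.070 in the Vehicle libraries. Without NETs 1 the count at an unadjusted p below 0.05 came to 14 members higher (3.03% of genes), and without Vehicle 2 to 15 (4% of genes). Without Vehicle 3, 8 members passed the adjusted p of 0.05 (Atp5g3, Atp5e, Cox6a1, Ndufa4, Cycs, Cox5a, Atp5j and Atp5a1), where 1.51% of all genes tested then passed as higher. Leaving out any 1 library left 47 to 50 members above 0 and a median log2 fold change of 0.15 to 0.24. For 34 of the 59 members at least 1 such omission moved the log2 fold change by over 1.5 times or turned its sign.

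**Figure D2:**
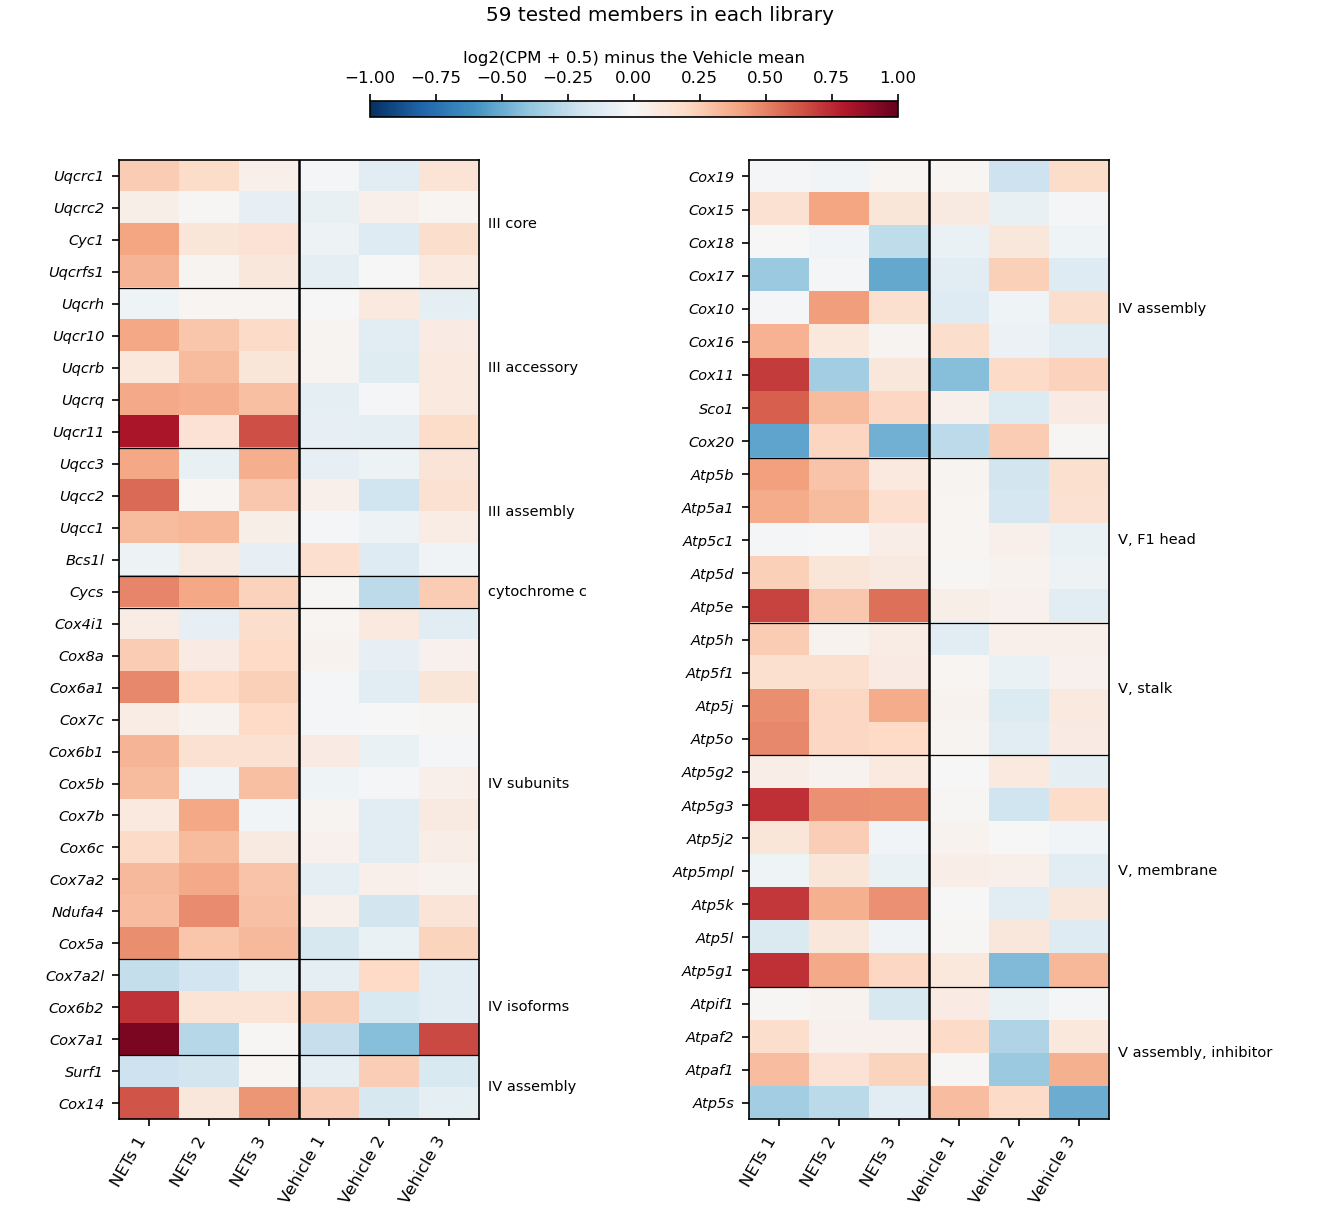
Each tested member (rows, by role) in each library (columns, NETs left of Vehicle) as log2(CPM + 0.5) minus its Vehicle mean, red above and blue below. Red cells fill most of the NETs columns, most deeply in NETs 1, and Vehicle 2 is the bluest column of its group, with median member deviations of 0.31 and -0.064 in those libraries.

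Structural subunits and assembly factors were counted apart. Of 40 structural members tested, 38 lay above 0, with a median log2 fold change of 0.22, and 20 were at an unadjusted p below 0.05. Of 19 assembly factors and inhibitors tested, 11 (57.9%) lay above 0, with a median of 0.18, and 3 (15.8%) were higher at that p. Of all genes tested, 50.2% lay above 0 and 6.72% were higher at that p. The median SE was 0.16 for assembly factors and inhibitors and 0.098 for structural members. No test of the difference between these groups was made.

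**Figure D3:**
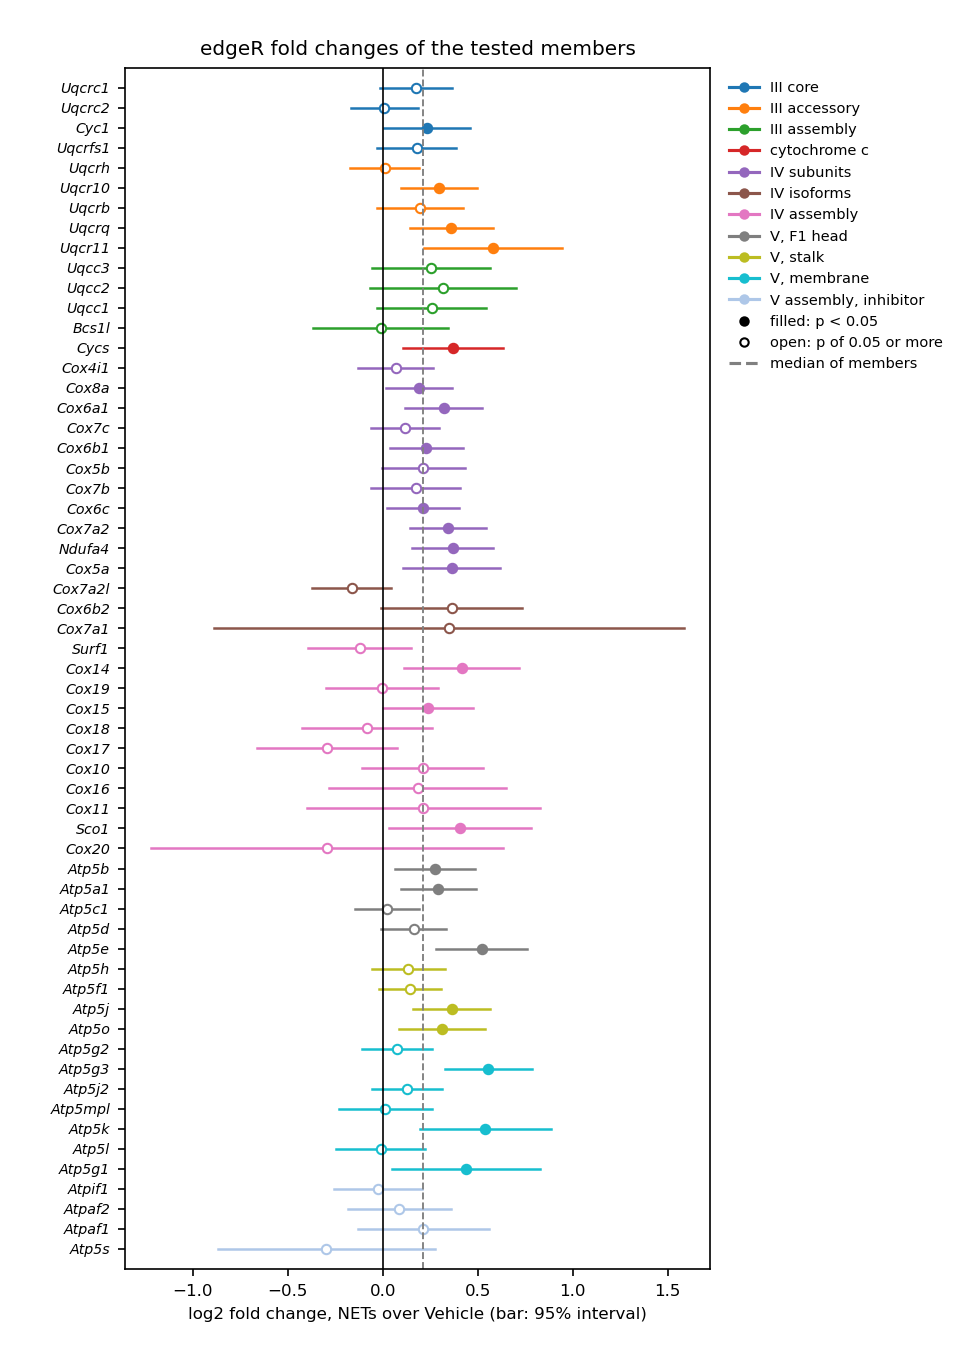
Log2 fold change of each tested member, NETs over Vehicle, with its 95% interval from edgeR, coloured by role; filled points have an unadjusted p below 0.05. Most points lie right of 0, around the dashed median of 0.21, and the assembly factors spread over both sides.

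In complex III, 12 of 13 tested genes lay above 0, with a median log2 fold change of 0.23, and 4 were higher at an unadjusted p below 0.05. The shares over all genes tested were 50.2% above 0 and 6.72% higher at that p. The largest difference was in Uqcr11, the gene of the smallest subunit (chr10:80402997-80406830, minus strand, in the coordinates of the deposited table, which are those of GRCm38). Uqcr11 had 34.2, 21.3 and 30.3 CPM in the NETs libraries, against 18.1, 17.9 and 21.9 CPM in the Vehicle libraries. Its NETs 1 and NETs 3 libraries lay above all others, while NETs 2 lay among the Vehicle values. It had a log2 fold change of 0.58 (SE 0.17, unadjusted p = 0.00399, adjusted p = 0.223). Uqcrq, a subunit at the ubiquinone-binding side (chr11:53427922-53430831, minus strand), had 54.2, 53.9 and 51.4 CPM in the NETs libraries, against 39.1, 41.4 and 44.7 CPM in the Vehicle libraries. All of its NETs libraries lay above all of its Vehicle libraries, with a log2 fold change of 0.36 (SE 0.10, unadjusted p = 0.00303, adjusted p = 0.223). Uqcr10 and Uqcrb, 2 further small subunits, also had NETs libraries that all lay above the Vehicle libraries, with log2 fold changes of 0.30 and 0.19, only the first of them at an unadjusted p below 0.05.

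Uqcrh, the acidic hinge protein that helps cytochrome c dock on complex III, had a log2 fold change near 0. It had 143, 149 and 149 CPM in the NETs libraries, against 146, 157 and 137 CPM in the Vehicle libraries, and the groups overlapped fully. Its log2 fold change was 0.0097 (95% interval -0.17 to 0.19), so its sign was not settled and it turned slightly negative under 8 of the alternative settings. The 4 genes of the core, whose proteins carry or scaffold electron transfer, were higher or level. The core protein gene Uqcrc1 had 209.8, 200.1 and 183 CPM in the NETs libraries, against 173, 162 and 194 CPM in the Vehicle libraries, with Vehicle 3 within the NETs range. Log2 fold changes of the core were 0.23 for cytochrome c1 (Cyc1), 0.18 for the Rieske iron-sulfur protein (Uqcrfs1), 0.17 for Uqcrc1 and 0.008 for its partner Uqcrc2, and Cyc1 was the one at an unadjusted p below 0.05.

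Uqcr11 and Uqcrh, the most and the least different accessory subunits of complex III, both have promoters that hold the ETS motif. The windows span 250 bases before the annotated start to 50 bases after it, from RefSeq on build GRCm38.p6, at chr10:80406772-80407071 (minus strand) and chr4:116075021-116075320 (minus strand). Bases in capitals mark a match, on either strand, to the motif letters of NRF1 (GCGCANGCGC), ETS factors such as GABPA (CCGGAAG) or YY1 (AANATGGCG), factors known to bind promoters of respiratory chain genes. The Uqcr11 match begins 66 bases before the start and the Uqcrh match 10 bases before it, each 5′ to 3′ as transcribed.
Uqcr11: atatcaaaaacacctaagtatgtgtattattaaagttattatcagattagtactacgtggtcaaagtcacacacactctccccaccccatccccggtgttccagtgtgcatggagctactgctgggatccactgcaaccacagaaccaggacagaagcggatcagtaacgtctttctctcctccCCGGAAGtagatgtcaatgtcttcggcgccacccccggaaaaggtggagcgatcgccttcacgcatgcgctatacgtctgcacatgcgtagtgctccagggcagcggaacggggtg
Uqcrh: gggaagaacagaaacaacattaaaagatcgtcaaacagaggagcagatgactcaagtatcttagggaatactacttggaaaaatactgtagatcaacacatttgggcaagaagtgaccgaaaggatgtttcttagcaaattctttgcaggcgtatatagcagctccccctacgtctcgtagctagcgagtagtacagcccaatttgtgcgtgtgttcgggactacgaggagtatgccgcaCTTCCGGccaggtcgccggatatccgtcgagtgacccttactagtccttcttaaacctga

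Assembly genes of complex III had log2 fold changes of 0.32 for Uqcc2, 0.26 for Uqcc1 and 0.25 for Uqcc3, which help make and stabilise cytochrome b, and -0.011 for Bcs1l, the ATPase that inserts the Rieske protein. None was at an unadjusted p below 0.05. The most abundant of them per length, Uqcc3, had 32.4, 23.4 and 32.0 CPM in the NETs libraries, against 23.4, 23.9 and 27.0 CPM in the Vehicle libraries. Its NETs 2 library stood at the level of the lowest Vehicle libraries.

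Cytochrome c, the soluble carrier between complexes III and IV, is encoded by Cycs. Cycs had 72.3, 67.5 and 60.3 CPM in the NETs libraries, against 51.7, 42.7 and 61.5 CPM in the Vehicle libraries. The groups overlapped only through Vehicle 3, which lay just above NETs 3. It had a log2 fold change of 0.37 (SE 0.12, unadjusted p = 0.00904, adjusted p = 0.261).

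In complex IV, 19 of 25 tested genes lay above 0 (50.2% of all genes tested). At an unadjusted p below 0.05 were 10, all higher with NETs (6.72% of all genes). All 11 constitutive nuclear subunits lay above 0, with a median log2 fold change of 0.21. In 8 of them the NETs libraries all lay above the Vehicle libraries (7.68% of all genes). Ndufa4, first assigned to complex I and now known as a complex IV subunit (chr6:11900292-11907497, minus strand), had 80.5, 90.5 and 79.8 CPM in the NETs libraries, against 67.4, 57.2 and 71.3 CPM in the Vehicle libraries. Cox6a1, the widely expressed form of subunit VIa, had 226, 186 and 192 CPM in the NETs libraries, against 160.5, 151 and 176 CPM in the Vehicle libraries. For both genes the lowest NETs library exceeded the highest Vehicle library. Ndufa4 had a log2 fold change of 0.37 (SE 0.10, unadjusted p = 0.00238, adjusted p = 0.223). Cox6a1 had a log2 fold change of 0.32 (SE 0.094, unadjusted p = 0.00405, adjusted p = 0.223).

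The other subunits varied among themselves. Cox5a, a subunit on the matrix side that contacts the core, had a log2 fold change of 0.36, and another matrix subunit, Cox5b, had 0.21. Cox6b1, which links the monomers of the dimeric enzyme, had 106, 93.3 and 93.6 CPM in the NETs libraries, against 89.2, 80.4 and 82.9 CPM in the Vehicle libraries, without overlap and with a log2 fold change of 0.23. Cox8a, a short membrane subunit, had 202, 179 and 194 CPM in the NETs libraries, against 174, 160.2 and 174 CPM in the Vehicle libraries, again without overlap, and a log2 fold change of 0.19. Cox7b had 72.6, 88.7 and 66.4 CPM in the NETs libraries, against 69.0, 62.4 and 71.9 CPM in the Vehicle libraries, where NETs 3 lay within the Vehicle values, and a log2 fold change of 0.17 (0.055 without NETs 2). Cox6c and Cox7c had log2 fold changes of 0.21 and 0.12, both without overlap. Cox4i1 had 301, 271 and 323 CPM in the NETs libraries, against 289.8, 307 and 264 CPM in the Vehicle libraries. Its groups overlapped, with a log2 fold change of 0.068 (95% interval -0.13 to 0.27), which was 0.14 without NETs 2 and 0.00019 without NETs 3.

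The promoter of Cox6a1 is the one among those shown with most matches to the factor motifs. The window, at chr5:115348909-115349208 (minus strand) on GRCm38.p6 from RefSeq, holds the NRF1 letters at 162 and 117 bases before the start and the ETS letters at 16 bases before it (capitals).
Cox6a1: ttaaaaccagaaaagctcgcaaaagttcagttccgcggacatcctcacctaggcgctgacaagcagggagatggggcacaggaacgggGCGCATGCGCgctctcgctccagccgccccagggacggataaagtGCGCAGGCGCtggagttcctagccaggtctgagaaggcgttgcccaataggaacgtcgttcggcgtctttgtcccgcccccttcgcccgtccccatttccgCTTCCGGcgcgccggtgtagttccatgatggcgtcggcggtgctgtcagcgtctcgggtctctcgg

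Paralogs of subunit VIIa gave opposite signs. Cox7a2 encodes the form of this subunit found in most tissues (chr9:79755361-79759878, minus strand), and Cox7a2l encodes SCAF1, a related protein that links complexes III and IV into supercomplexes (chr17:83501919-83514333, minus strand). C57BL/6 mice are known to carry a shortened form of SCAF1. Cox7a2 had 68.9, 71.5 and 67.1 CPM in the NETs libraries, against 51.6, 56.8 and 56.3 CPM in the Vehicle libraries. All NETs libraries lay above all Vehicle libraries, with a log2 fold change of 0.34 (SE 0.094, unadjusted p = 0.00233, adjusted p = 0.223). Cox7a2l had 261, 271 and 292 CPM in the NETs libraries, against 291, 354 and 286 CPM in the Vehicle libraries. Its values were lower with NETs on average, but NETs 3 lay above 2 of the Vehicle libraries, with a log2 fold change of -0.16 (SE 0.098, unadjusted p = 0.115, adjusted p = 0.5). Without Vehicle 2 the value was -0.049.

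Within each library the reads of Cox7a2 were 0.264, 0.264 and 0.229 times those of Cox7a2l with NETs, against 0.178, 0.160 and 0.197 times with Vehicle. The ratio did not overlap between the groups, which gave p = 0.1 in a two-sided exact permutation test, the smallest p that 3 against 3 libraries allow. Adjusted over the 11 paralog quantities compared, p was 0.275. Per length, Cox7a2l remained the more abundant in both groups, with 247 ± 14.3 FPKM with NETs and 279 ± 34.2 FPKM with Vehicle, beside 140.3 ± 4.57 FPKM with NETs and 111 ± 5.79 FPKM with Vehicle for Cox7a2. Cox7a1, the heart and muscle form, was near the limit of detection with 2.45, 0.761 and 1.05 CPM in the NETs libraries, against 0.804, 0.639 and 1.93 CPM in the Vehicle libraries, and its log2 fold change was 0.35 with all libraries and -0.29 without NETs 1.

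The 2 promoters are shown because these paralogs of one fold gave opposite signs. The windows lie at chr9:79759804-79760103 (minus strand) and chr17:83514284-83514583 (minus strand), from RefSeq on GRCm38.p6, and neither holds the NRF1, ETS or YY1 letters, which says only that these letters are not in this window.
Cox7a2: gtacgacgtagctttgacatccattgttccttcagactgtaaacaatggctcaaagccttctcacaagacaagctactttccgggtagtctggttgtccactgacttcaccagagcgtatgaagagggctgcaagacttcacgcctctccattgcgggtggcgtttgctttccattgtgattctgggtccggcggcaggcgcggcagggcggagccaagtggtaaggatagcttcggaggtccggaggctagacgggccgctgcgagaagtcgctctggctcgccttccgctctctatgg
Cox7a2l: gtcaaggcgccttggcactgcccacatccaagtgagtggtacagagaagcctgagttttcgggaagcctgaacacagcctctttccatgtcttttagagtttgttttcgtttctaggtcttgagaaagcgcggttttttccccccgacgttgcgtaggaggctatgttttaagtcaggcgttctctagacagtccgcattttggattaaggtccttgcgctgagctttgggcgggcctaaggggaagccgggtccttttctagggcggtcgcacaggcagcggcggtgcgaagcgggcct

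Tissue-restricted isoforms of complex IV mostly had few reads or 0. Cox7b2 and Cox8c, known from testis, had 0 reads in all 6 libraries, and Cox8b and Cox6a2, forms of heart and skeletal muscle, had 1 read each, in a Vehicle library. Cox4i2, the isoform known from lung, had 0.0582, 0.163 and 0.233 CPM in the NETs libraries, against 0.911, 0.511 and 0 CPM in the Vehicle libraries and 33 reads in all, too few to be tested. Cox6b2, described as the testis form of subunit VIb, was an exception, with 37.8, 24.9 and 24.9 CPM in the NETs libraries, against 27.3, 20.3 and 20.9 CPM in the Vehicle libraries. It made up 26.2%, 21.1% and 21.0% of the reads of the Cox6b1 and Cox6b2 pair with NETs, against 23.4%, 20.2% and 20.2% with Vehicle. The share overlapped between groups (p = 0.5, two-sided exact permutation test). NETs 1 lay above all other libraries, and the log2 fold change of Cox6b2 was 0.36 (unadjusted p = 0.0545) with all libraries and 0.14 without NETs 1.

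Among the complex IV assembly genes, 6 of 11 tested (54.5%) lay above 0, near the 50.2% of all genes tested. At an unadjusted p below 0.05, 3 (27.3%) were higher, beside 6.72% of all genes. Cox14, which holds newly made COX1 for assembly, was the most abundant of them per length in the NETs group, and had 60.5, 42.2 and 53.1 CPM in the NETs libraries, against 46.3, 34.8 and 36.6 CPM in the Vehicle libraries. NETs 2 lay below Vehicle 1, and the gene had a log2 fold change of 0.42 (SE 0.14, unadjusted p = 0.0104, adjusted p = 0.264). Sco1, a copper chaperone for COX2, had a log2 fold change of 0.41, and Cox15, which makes heme A, of 0.24, both with all NETs libraries above all Vehicle libraries. Cox10, which acts one step before Cox15, had 0.21, the assembly factor Cox16 0.18 and the copper factor Cox11 0.21, which was -0.12 without NETs 1.

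The lower side of complex IV assembly held Cox17, Cox20, Surf1, Cox18 and Cox19. Cox17, the copper carrier that supplies Sco1 and Cox11, had 14.6, 18.7 and 13.1 CPM in the NETs libraries, against 17.5, 22.5 and 17.3 CPM in the Vehicle libraries. NETs 2 lay within the Vehicle values, and the gene had a log2 fold change of -0.29 (SE 0.17, unadjusted p = 0.112, adjusted p = 0.497). The value was -0.45 without NETs 2, -0.19 without NETs 3 and -0.15 without Vehicle 2. Cox20 had 1.16, 2.28 and 1.22 CPM in the NETs libraries, against 1.501, 2.36 and 1.93 CPM in the Vehicle libraries, with overlapping groups and a log2 fold change of -0.29 (SE 0.43, unadjusted p = 0.509, adjusted p = 0.814). Leaving out single libraries gave -0.67 without NETs 2 to -0.11 without Vehicle 2. Cox20 lies opposite Hnrnpu, which drew 115464 reads beside 179 for Cox20, and the use of strand in counting is not given in the sources used here. Surf1, whose loss in humans causes a severe complex IV deficiency, had a log2 fold change of -0.12, Cox18 of -0.082 and Cox19 of -0.002. Sco2, the second copper chaperone, was listed with 0 reads in every library. Its interval overlaps Tymp on the same strand and Ncaph2 on the other, and Tymp had 69 reads and Ncaph2 38214.

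In ATP synthase, 17 of 20 tested genes lay above 0 (50.2% of all genes tested), with a median log2 fold change of 0.15. At an unadjusted p below 0.05 were 8, all higher with NETs (6.72% of all genes). Within the F1 head the genes were not alike. Atp5e, the epsilon subunit of the central stalk (chr2:174461070-174464100, minus strand), had 94.3, 71.1 and 86.7 CPM in the NETs libraries, against 61.5, 60.7 and 54.9 CPM in the Vehicle libraries. The last digit of these positions is rounded. All NETs libraries lay above all Vehicle libraries, with a log2 fold change of 0.52 (SE 0.11, unadjusted p = 0.00032, adjusted p = 0.223). Atp5b had 1092, 1005 and 880.0 CPM in the NETs libraries, against 840.5, 723 and 918 CPM in the Vehicle libraries. Vehicle 3 lay above NETs 3, with a log2 fold change of 0.27 (SE 0.099, unadjusted p = 0.0146, adjusted p = 0.28). Atp5a1 had 918, 883 and 797 CPM in the NETs libraries, against 718, 630.1 and 790.0 CPM in the Vehicle libraries, without overlap and with a log2 fold change of 0.29 (SE 0.092, unadjusted p = 0.0062, adjusted p = 0.238). The gamma subunit Atp5c1 had a log2 fold change of 0.024 (95% interval -0.15 to 0.19), and the delta subunit Atp5d had 0.16.

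The peripheral stalk holds the F1 head still while the rotor turns. Atp5j, a coupling factor of this stalk (chr16:84827866-84835625, minus strand), had 136, 113 and 127 CPM in the NETs libraries, against 100.3, 89.4 and 105 CPM in the Vehicle libraries. The groups did not overlap, with a log2 fold change of 0.36 (SE 0.095, unadjusted p = 0.00173, adjusted p = 0.223). Its gene overlaps Gabpa on the other strand, which drew 8753 reads beside 11560 for Atp5j and had a log2 fold change of -0.053. Atp5o, the cap that joins the stalk to the head, had a log2 fold change of 0.31, and subunit b, Atp5f1, had 0.14, both without overlap. All reads of Atp5o stood under one identifier, and the other, whose longer interval overlaps an end of the first, had 0. Atp5h, subunit d, was the most abundant stalk gene per length at 281 ± 22.8 FPKM with NETs and 258 ± 16.2 FPKM with Vehicle, and had 181, 156 and 160.0 CPM in the NETs libraries, against 141, 157 and 158 CPM in the Vehicle libraries. NETs 2 lay below Vehicle 2 and Vehicle 3, with a log2 fold change of 0.13 (0.068 without NETs 1 and 0.071 without Vehicle 1).

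The membrane part held both the largest and some of the smallest differences of the enzyme. Atp5k, subunit e, which joins ATP synthase into dimers (chr5:108433240-108434450, minus strand), had 20.2, 15.7 and 16.9 CPM in the NETs libraries, against 12.1, 11.3 and 13.2 CPM in the Vehicle libraries. The last digit of these positions is rounded. The groups did not overlap, with a log2 fold change of 0.54 (SE 0.16, unadjusted p = 0.00464, adjusted p = 0.225). Its dimer partner, subunit g (Atp5l), had a log2 fold change of -0.01 (95% interval -0.24 to 0.22), and the small subunits Atp5mpl and Atp5j2 had 0.015 and 0.13.

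Atp5g1, Atp5g2 and Atp5g3 encode the same mature c subunit, the ring that protons turn, behind different import signals. Their promoters, at chr2:73911277-73911576 (minus strand), chr15:102670998-102671297 (minus strand) and chr11:96075582-96075881 (minus strand) from RefSeq on GRCm38.p6, are shown because 3 genes for 1 protein gave different values here. Capitals mark the NRF1 letters, 12 bases after the start in Atp5g3 and 42 before it in Atp5g2, whose RefSeq start lies 1303 bases from the start in the deposited table. Atp5g1 holds none of the 3 motifs in this window.
Atp5g3: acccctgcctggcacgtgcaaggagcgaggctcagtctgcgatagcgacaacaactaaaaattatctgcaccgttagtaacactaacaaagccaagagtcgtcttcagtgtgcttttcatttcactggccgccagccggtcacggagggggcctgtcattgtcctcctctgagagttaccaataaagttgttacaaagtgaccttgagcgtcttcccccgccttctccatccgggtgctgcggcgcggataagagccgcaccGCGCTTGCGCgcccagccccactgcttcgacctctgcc
Atp5g2: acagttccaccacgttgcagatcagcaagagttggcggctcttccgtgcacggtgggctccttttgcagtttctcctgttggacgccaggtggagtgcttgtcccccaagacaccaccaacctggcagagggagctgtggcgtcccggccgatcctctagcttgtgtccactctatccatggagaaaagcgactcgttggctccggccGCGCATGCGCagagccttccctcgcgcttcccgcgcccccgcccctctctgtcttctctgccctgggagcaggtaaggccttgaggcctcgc
Atp5g1: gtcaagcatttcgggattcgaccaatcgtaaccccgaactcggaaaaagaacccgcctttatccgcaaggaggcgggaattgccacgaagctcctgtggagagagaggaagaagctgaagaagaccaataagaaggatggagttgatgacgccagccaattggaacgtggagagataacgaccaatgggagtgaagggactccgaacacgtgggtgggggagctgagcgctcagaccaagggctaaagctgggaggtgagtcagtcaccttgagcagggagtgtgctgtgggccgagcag

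Atp5g3 had the smallest p of all members. It had 185, 153 and 152 CPM in the NETs libraries, against 113, 97.0 and 127 CPM in the Vehicle libraries, and every NETs library exceeded every Vehicle library. This gave a log2 fold change of 0.56 (SE 0.11, unadjusted p = 0.00011, adjusted p = 0.223), a 1.47-fold difference. Atp5g2 had 105, 103 and 107 CPM in the NETs libraries, against 101, 107 and 93.8 CPM in the Vehicle libraries. Its groups overlapped, with a log2 fold change of 0.075 (95% interval -0.11 to 0.26). Atp5g1, the least abundant of the 3 per length at 16.8 ± 3.23 FPKM with NETs and 12.5 ± 3.31 FPKM with Vehicle, had 54.5, 42.5 and 37.7 CPM in the NETs libraries, against 35.1, 23.8 and 41.2 CPM in the Vehicle libraries. Vehicle 3 lay within its NETs range, and the log2 fold change was 0.44 with all libraries, 0.28 without NETs 1 and 0.25 without Vehicle 2.

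As a share of the c subunit reads, Atp5g3 was higher in every NETs library. Atp5g3 supplied 53.7%, 51.3% and 51.2% of the reads of the trio with NETs, against 45.3%, 42.5% and 48.4% with Vehicle. The groups did not overlap, and the difference of 6.64 percentage points gave p = 0.1 in a two-sided exact permutation test, the smallest the design allows (0.275 adjusted over the 11 paralog quantities). Atp5g2 supplied 30.5%, 34.4% and 36.1% with NETs, against 40.5%, 47.0% and 35.9% with Vehicle, where NETs 3 lay just above Vehicle 3 (exact permutation p = 0.2). Measured per length, the Atp5g3 share differed by 7.79 percentage points.

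**Figure D4:**
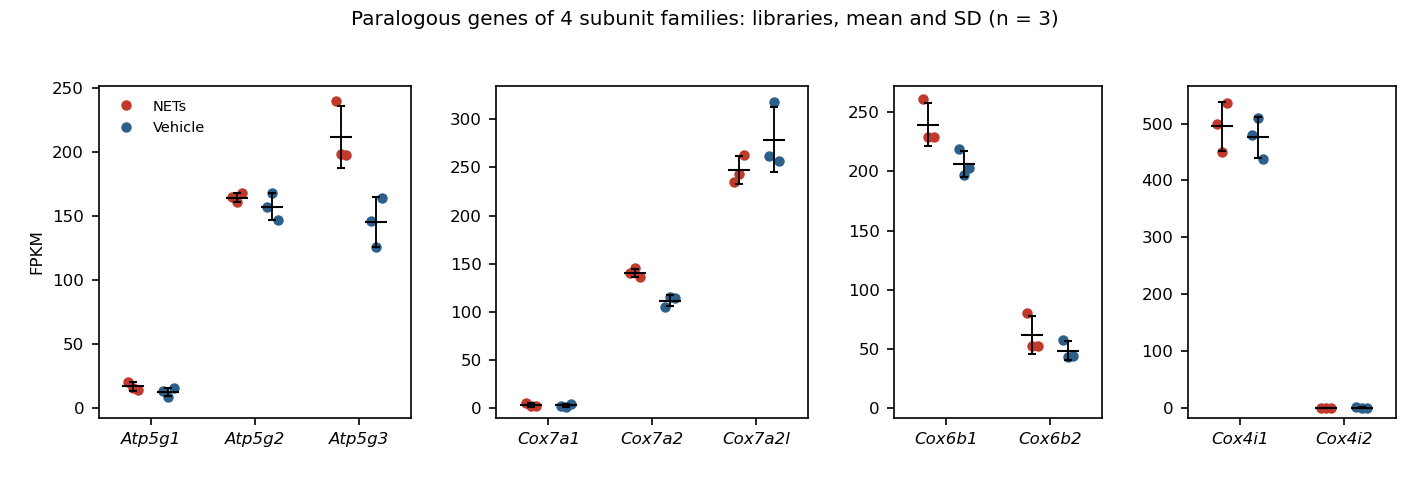
FPKM of paralogous genes in each NETs library (red) and Vehicle library (blue), with the mean and SD of 3 libraries. Atp5g3 and Cox7a2 separate by group, Atp5g2 and Cox4i1 overlap, Cox7a2l averages 247 FPKM with NETs and 279 FPKM with Vehicle, and Cox7a1 and Cox4i2 lie near 0.

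No regulator or assembly factor of ATP synthase was at an unadjusted p below 0.05. Atpif1, the inhibitor that blocks the enzyme from running backwards, had 40.8, 41.6 and 36.2 CPM in the NETs libraries, against 42.9, 38.8 and 40.03 CPM in the Vehicle libraries. Its groups overlapped, with a log2 fold change of -0.025 (95% interval -0.25 to 0.21), and its sign turned without NETs 3 or without Vehicle 1. Atpaf1 and Atpaf2, chaperones of the beta and alpha subunits, had 0.21 and 0.088. Atp5s, a coupling factor related protein, had the lowest log2 fold change of the set. It had 4.54, 4.84 and 5.42 CPM in the NETs libraries, against 7.45, 6.83 and 4.04 CPM in the Vehicle libraries. Vehicle 3 lay below all NETs libraries, with a log2 fold change of -0.30 (SE 0.27, unadjusted p = 0.283, adjusted p = 0.67). That value was -0.14 without Vehicle 1 and -0.52 without Vehicle 3.

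The mitochondrially encoded partners of these complexes lay on the other side. Of 6 such mRNAs, 0 had a log2 fold change above 0, the median was -0.38, and 5 were at an unadjusted p below 0.05, all lower with NETs (6.06% of all genes). For mt-Co1, the catalytic subunit of complex IV, the values were 5298, 6679 and 6450.1 CPM in the NETs libraries, against 8545, 8731 and 7468 CPM in the Vehicle libraries. The groups did not overlap, with a log2 fold change of -0.41 (SE 0.10, unadjusted p = 0.000961, adjusted p = 0.223). For mt-Cytb, the cytochrome b of complex III, the values were 1981, 2661 and 2372 CPM in the NETs libraries, against 3021, 2829.9 and 2774 CPM in the Vehicle libraries. These did not overlap either, with a log2 fold change of -0.29. The values of mt-Co2, mt-Co3 and mt-Atp6 were far lower, at means of 23.6, 25.2 and 21.7 CPM with NETs and 31.3, 32.9 and 29.5 CPM with Vehicle, so nearly all of the mitochondrial sum came from mt-Co1 and mt-Cytb. The mouse nuclear genome is known to hold copies of mitochondrial sequence, and how reads matching both were counted is not given in the sources used here, so the levels of these mRNAs are uncertain.

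The 6 mRNAs together summed to 7344, 9419 and 8895 CPM with NETs, against 11672, 11657 and 10327 CPM with Vehicle. The log2 ratio of the nuclear sum to the mitochondrial sum was -0.054, -0.51 and -0.46 in the NETs libraries and -0.98, -1.04 and -0.75 in the Vehicle libraries. The groups did not overlap, and their means differed by 0.58 on the log2 scale, or by 0.44 to 0.67 when any 1 library was left out. NETs 1 stood apart from the other NETs libraries in this ratio. The 2 sums share a library total, so neither shows on its own which of them differed in amount per cell.

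**Figure D5:**
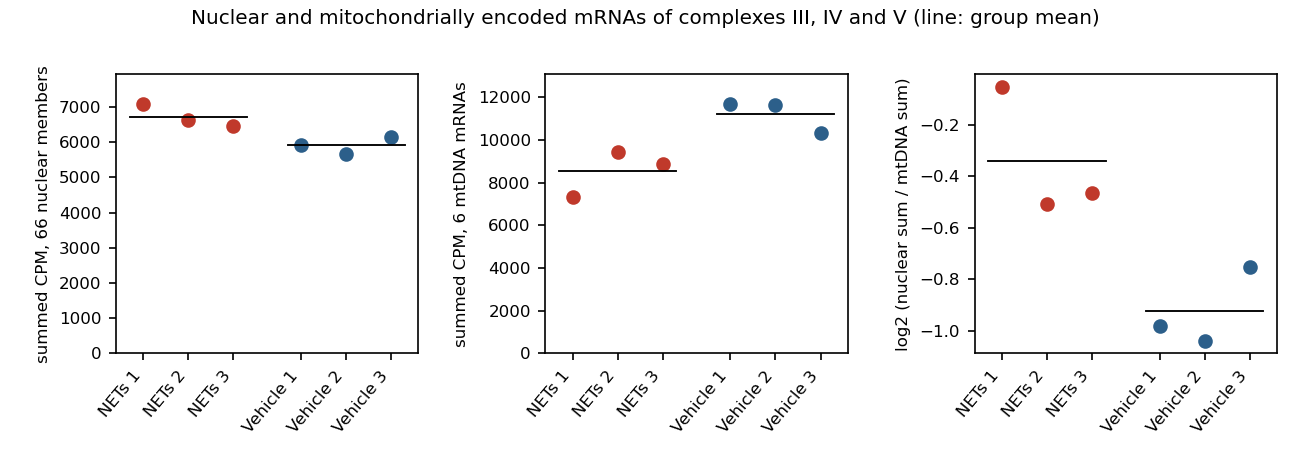
Summed CPM of the 66 nuclear members, summed CPM of the 6 mitochondrially encoded mRNAs and the log2 ratio of both sums in each library, NETs in red and Vehicle in blue, with lines at the group means. The nuclear sum is higher and the mitochondrial sum lower in every NETs library, and the ratio lies from -0.51 to -0.054 with NETs and from -1.04 to -0.75 with Vehicle.

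Further mitochondrial genes outside the naming rule were also mostly above 0. The list held subunit and assembly genes of the same complexes, and more general ones such as Oma1, Immp1l, Immp2l, Lrpprc, Slirp and Oxa1l. Of 29 listed symbols 26 matched, 25 were tested, 20 lay above 0, with a median log2 fold change of 0.16, and 0 were called at an adjusted p of 0.05. At an unadjusted p below 0.05, 4 were higher and 0 lower. Of all genes tested, 50.2% lay above 0, and 6.72% were higher and 6.06% lower at that p. Higd1a, a small protein that binds complex IV and supports it in low oxygen, had 0.36. Coa3, the partner of Cox14 on new COX1, had 0.36, and the assembly factor Cmc2 had 0.35. Usmg5, a further membrane subunit of ATP synthase, had 0.33.

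Transcription factors and coactivators known to act on nuclear or mitochondrial genes of the respiratory chain lay on both sides of 0 in their own mRNA. Of 12 listed, 11 were tested, 7 lay above 0, the median log2 fold change was 0.0099, and 0 were at an unadjusted p below 0.05. Of all genes tested, 50.2% lay above 0 and 12.8% were at that p. The values were 0.0099 for Nrf1, -0.053 for Gabpa, -0.16 for Gabpb1, 0.0081 for Yy1 and 0.034 for Tfam, the factor that packages and transcribes mitochondrial DNA. The largest was 0.25 for Esrra, an orphan nuclear receptor that partners PGC-1 coactivators (unadjusted p = 0.0869). Ppargc1a, the PGC-1 alpha gene, had 1 read in all 6 libraries.

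Promoter windows of 300 bases were matched in RefSeq to 52 members, 49 of them tested. Chromosome 18 was not searched, which left out Atp5a1. The ETS letters stood in 17 of the 49 (34.7%), beside 8.86% of all 32851 windows and 11.6% of windows of protein-coding genes. The NRF1 letters stood in 9 (18.4%), beside 4.60% and 6.38%, and the YY1 letters in 5 (10.2%), beside 2.38% and 3.12%. The SP1 letters GGGCGG, left in lower case above, stood in 25 (51.0%), beside 35.7% and 46.2%. At least 1 of NRF1, ETS and YY1 stood in 26 of the 49. With 1 window for each of 27025 genes, the shares were 9.12% for ETS, 4.78% for NRF1, 2.51% for YY1 and 35.9% for SP1. None of these backgrounds was limited to the genes tested here, so the shares are not like for like.

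Motif matches were set beside the differences. Of the 19 matched members at an unadjusted p below 0.05, 9 held ETS, 4 held NRF1, 1 held YY1 and 9 held SP1. Of the other 30, 8 held ETS, 5 held NRF1, 4 held YY1 and 16 held SP1. The median log2 fold change was 0.21 with ETS and 0.21 without it, and 0.31 with NRF1 and 0.21 without it. It was 0.13 with YY1 and 0.22 without it, and 0.24 with SP1 and 0.21 without it. Uqcr11 and Uqcrh held an ETS match each, and Atp5g3 and Atp5g2 an NRF1 match each, beside unequal log2 fold changes. These pairs were shown because their values differed, so they cannot bear on the motifs, whose part was not tested. A match of letters is a description of the window and no evidence that a factor binds there.

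Most of these genes have short transcripts. The median length behind FPKM was 805 bases for the tested members and 1698 bases for all genes tested, and 44 of the 59 members stood in the shortest of 5 equal bins of genes by length. The other genes of that bin had a median log2 fold change of 0.051, and the members in it 0.20. With the trend on length removed, the median of all 59 members was 0.16 and 45 lay above 0. Across the genes tested the rank correlation of length with log2 fold change was -0.12, and across members -0.15, as a description over genes of the same 6 libraries. The part of length beyond this was not tested.

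Complex I and the mitochondrial ribosome are given for comparison. Of 44 complex I genes tested (symbols beginning with Nduf, of 45 listed, Ndufa4 left out), 42 lay above 0 with a median log2 fold change of 0.23, and 18 were higher at an unadjusted p below 0.05. Of 77 mitochondrial ribosomal protein genes tested (Mrpl and Mrps, of 78), 67 lay above 0 with a median of 0.19, and 25 were higher at that p. For complexes III to V the counts were 49 of 59, a median of 0.21, and 23. Of all genes tested, 50.2% lay above 0 and 6.72% were higher at that p. No test of a difference between complex I, the mitochondrial ribosome and complexes III to V was made.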

How the data were processed

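Bulk RNA-seq of 3 NETs and 3 Vehicle libraries was used. Per the file headers, the authors deposited raw counts of reads for each Ensembl gene, without normalization, and FPKM values. The submitters' processing notes name STAR, DESeq2 and the build mm9, while gene positions in the deposited table are those of GRCm38. The counting program, annotation and strand setting were not given in the sources used here. Counts were tested with edgeR 4.0.16 in R 4.3.3 (quasi-likelihood, TMM factors 0.989 to 1.01, filterByExpr, Benjamini-Hochberg over 13900 genes). Genes outside the test held 0.135% of reads. CPM used library totals.

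Alternatives were DESeq2 1.42.0, limma 3.58.1 (voom, and log2(FPKM + 1) or + 0.1), RLE or library-total scaling, other filters, each library left out, a replicate block, and removal of length or GC trends, the last chosen after the data were seen. Scripts were tested on simulated counts. Members and lists were chosen with earlier results of these data known. Values per library are given for the 10 members of smallest p, the 3 lowest fold changes, paralogs, the most abundant member of each role, and Atpif1, Cycs and Atp5b. Of the members, 26 overlap another gene, and 11 pseudogenes named for members held 30 reads in all.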

Additional observations from a re-analysis of the deposited data

How the results depend on the processing

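The number of members past an adjusted p of 0.05 was 0 with edgeR, 3 with DESeq2, 9 without a filter on low counts, and 0 with limma-voom, FPKM or other scaling and filters; leaving out single libraries gave 0 to 8. Members at an unadjusted p of 0.05 numbered 14 to 26 higher and 0 to 1 lower over these omissions. The share of all genes higher at that p also moved, from 3.03% without NETs 1 to 11% without Vehicle 3. The median log2 fold change stayed between 0.15 and 0.24 over every alternative run, with 45 to 50 members above 0. After centring within groups, correlations of same-numbered libraries were -0.038, -0.081 and -0.21, and no library correlated best with its own number. The largest were 0.27 (NETs 3, Vehicle 2), 0.24 (NETs 1, Vehicle 3) and 0.12 (NETs 2, Vehicle 1). With 3 libraries a group these values cannot settle whether libraries were paired. With a replicate block the median was 0.20 and 50 members lay above 0. In that fit 19 were higher at an unadjusted p of 0.05 (5.14% of genes) and 0 passed adjustment. With the block and the length trend removed the median was 0.15, and with GC removed 0.23 (0.23 with the block). The difference in the Atp5g3 share of c subunit reads was 5.19 to 8.13 percentage points with single libraries left out, and the nuclear to mitochondrial log2 ratio differed by 0.57 in FPKM and by 0.44 to 0.67 over the same omissions.

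The sign of the log2 fold change turned in at least 1 alternative for 13 of the 59 tested members, 4 of them with values given per library (Uqcrh, Atp5g2, Cox7a1 and Atpif1) and the other 9 Atp5c1, Atp5l, Atp5mpl, Atpaf2, Bcs1l, Cox11, Cox19, Surf1 and Uqcrc2. Of the 13, 6 turned on leaving out single libraries alone, and 7 under other alternatives. Uqcrh came to -0.0013 with library totals, -0.0048 at a mean CPM of at least 5, -0.0054 with protein-coding genes only, -0.041 with the length trend removed (-0.042 with the block as well) and -0.039 to 0.071 over the omissions of single libraries, below 0 without NETs 3, Vehicle 1 or Vehicle 3. Atp5g2 came to -0.018 with GC removed and -0.020 with the block as well, Cox7a1 ranged over single omissions between -0.29 without NETs 1 and 0.97 without Vehicle 3, and Atpif1 between -0.057 and 0.029, above 0 without NETs 3 or Vehicle 1. The cause was not tested. With 3 libraries a group, an exact test of a single value cannot go below p = 0.1, and genes such as Cox7a1 and Cox20, with 130 and 179 reads in all, had wide intervals.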
